A study of Arabidopsis thaliana with 33 samples.

Results

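UMAMIT14 (AT2G39510) was read here by 1 probe set out of 22746 on the arrays, of which 22645 were tested. The gene was chosen with its root values in view, because they set apart 25 kPa, low oxygen at normal pressure and restored oxygen. Its root values are therefore given as a description without a test, while its shoot values took no part in the choice and were tested. The study exposed 10 day old seedlings of Arabidopsis ecotype Wassilewskija for 24 h to low-pressure chambers and read roots and shoots separately on Affymetrix ATH1 arrays, 15 for roots and 18 for shoots. The purpose was to separate the effect of low total pressure (hypobaria) from that of the low oxygen that comes with it. The control atmosphere was 97 kPa, with oxygen at 21 kPa. At 50 kPa oxygen was 10 kPa and at 25 kPa it was 5 kPa. In 50 kPa/NormOx and 25 kPa/NormOx the pressure was lowered while oxygen was held at 21 kPa. In 97 kPa/HypOx the pressure was normal and oxygen was 5 kPa. Carbon dioxide was the same in all 6 atmospheres, and nitrogen made up the balance where oxygen was set. There were 3 arrays in each tissue and atmosphere, except 2 for root 50 kPa/NormOx, 1 for root 25 kPa/NormOx, 4 for shoot 50 kPa/NormOx and 2 for shoot 97 kPa/HypOx. Each array held the pooled tissue of about 12 plants from 1 chamber, with 3 chambers per atmosphere; the labels do not say how the 4 arrays of shoot 50 kPa/NormOx fall into them.

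UMAMIT14 belongs to the UMAMITs (Usually Multiple Acids Move In and out Transporters), a plant family of membrane proteins that carry amino acids down their gradient across the plasma membrane. UMAMIT14 is known as an exporter that lets amino acids leave the phloem of the root, and it also acts in the supply of amino acids to the seed. Amino acids are made largely in leaves and older tissues, travel in the phloem and must be unloaded where growth draws on them. When oxygen runs short, Arabidopsis turns on a common set of genes for fermentation, sucrose breakdown and oxygen sensing, and alanine accumulates as a store of carbon and nitrogen.

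Values are on a log2 scale, so that a difference of 1 is 2-fold. Roots and shoots were normalized apart, so the level of UMAMIT14 is not compared between them. Markers were set side by side only to check the tissue labels, which they bore out with ranges that did not overlap. RCA, which activates the carbon-fixing enzyme Rubisco, lay between 12.32 and 12.70 in shoots and between 6.01 and 7.25 in roots. PER44, a peroxidase of root hair cells, lay between 6.09 and 9.49 in roots and between 3.95 and 4.18 in shoots. Among the root arrays, 97 kPa replicate 1 had a mean correlation with the others of 0.884, against 0.966 to 0.98 for the rest. Among the shoot arrays, 50 kPa/NormOx replicate 1 had 0.898, against 0.974 to 0.983.

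In roots, UMAMIT14 was higher at 25 kPa than at 97 kPa and higher again under low oxygen at normal pressure. With oxygen restored it lay within the range of the control arrays. At 97 kPa the 3 root arrays read 7.56, 8.21 and 8.40 (mean 8.06, SD 0.439). At 50 kPa they read 8.05, 8.25 and 8.11 (mean 8.14, SD 0.103), which is within the range of the control arrays. At 25 kPa they read 9.13, 9.37 and 9.29 (mean 9.26, SD 0.119). Every one of these lay above every 97 kPa and 50 kPa array. Under 97 kPa/HypOx the values were 10.17, 10.28 and 10.01 (mean 10.15, SD 0.135), and these 3 arrays were the highest of the 15. With oxygen restored, the 2 arrays at 50 kPa/NormOx read 7.58 and 7.89 (mean 7.73, SD 0.22). The single array at 25 kPa/NormOx read 7.78. Both restored atmospheres fell inside the range of the 97 kPa arrays. The lowest control value, 7.56, came from the replicate that stood apart from the other root arrays. The share of all probe sets with the same separation of arrays was 8.77% for 25 kPa above 97 kPa, 8.66% for 25 kPa above 50 kPa, 6.5% for 97 kPa/HypOx above 97 kPa, 5.76% for 97 kPa/HypOx above 50 kPa and 7.23% for 97 kPa/HypOx above 25 kPa.

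**Figure D1:**
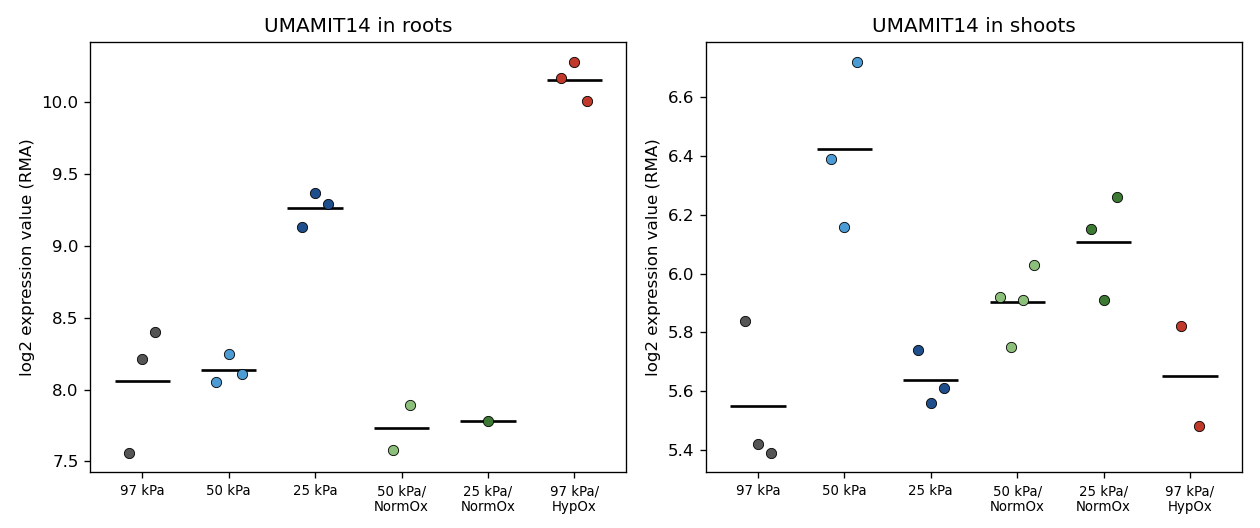
UMAMIT14 log2 expression in roots (left) and shoots (right) in the 6 atmospheres; each point is 1 array and each black line the mean of a group. In roots the 3 arrays of 25 kPa and the 3 of 97 kPa/HypOx stand above all others, and in shoots 50 kPa has the highest mean and overlaps 25 kPa/NormOx.

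In order of their means, the root groups ran from 50 kPa/NormOx through 25 kPa/NormOx, 97 kPa, 50 kPa and 25 kPa up to 97 kPa/HypOx. The 4 lowest groups overlapped with their neighbours in this order. A gap of 0.88 separated the highest 50 kPa array from the lowest 25 kPa array. A second gap, of 0.64, separated 25 kPa from 97 kPa/HypOx. The pooled SD of UMAMIT14 within root groups was 0.24.

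The root differences, taken from 1 linear model over the 6 atmospheres, put these levels into folds. UMAMIT14 was higher than at 97 kPa by 1.21 (SE 0.19, 2.31-fold) at 25 kPa and by 2.1 (SE 0.19, 4.28-fold) under 97 kPa/HypOx. Without 97 kPa replicate 1 these differences were 0.96 and 1.85. At 50 kPa the difference was 0.08 (SE 0.19), which turned to -0.17 without that array. The restored atmospheres differed from 97 kPa by -0.33 (SE 0.21) at 50 kPa/NormOx and by -0.28 (SE 0.27) at 25 kPa/NormOx. Without 97 kPa replicate 1, an omission chosen after seeing the data, these were -0.57 and -0.53. With all control arrays kept, the restored arrays lay inside the control range. These 5 differences share the same 3 control arrays, so they are not independent of each other.

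Other comparisons do not use the control arrays, and all but the last of those below hold either total pressure or oxygen the same. At the same total pressure of 25 kPa, UMAMIT14 was higher by 1.49 (SE 0.27, 2.8-fold) with oxygen at 5 kPa than with oxygen at 21 kPa, the second being 1 array. At 50 kPa total pressure the corresponding difference was 0.41 (SE 0.21), between 10 kPa and 21 kPa oxygen, and every 50 kPa array lay above both 50 kPa/NormOx arrays (7.04% of probe sets did so). At the same oxygen pressure of 5 kPa, UMAMIT14 was higher by 0.89 (SE 0.19, 1.85-fold) at 97 kPa total pressure than at 25 kPa. With oxygen at 21 kPa, the 25 kPa/NormOx array differed from 50 kPa/NormOx by 0.05. Between the 2 hypobaric atmospheres with their reduced oxygen, where pressure and oxygen differ together, 25 kPa exceeded 50 kPa by 1.12 (2.18-fold).

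Because the gene was picked for these contrasts, its place among all genes is also only a description. For 97 kPa/HypOx minus 25 kPa in roots, UMAMIT14 ranked 4 by signed difference among the 22645 probe sets. Above it stood the pseudogene AT3G42500 at 1.07 (SE 0.84), the iron superoxide dismutase FSD1 at 1.02 (SE 0.39) and 1 probe set without a gene name at 0.92 (SE 0.42). Next below it were AT4G24110 at 0.86 (SE 0.25), AT5G04120 at 0.86 and AT3G23170 at 0.79. The SE of UMAMIT14, 0.19, was smaller than that of the 3 probe sets above it. No probe set (0%) was called in this comparison, by an adjusted p below 0.05 or by the threshold of the study, an unadjusted p below 0.01 with a change of at least 2-fold. An unadjusted p below 0.05 was reached by 1.73% of probe sets. For 25 kPa minus 25 kPa/NormOx, UMAMIT14 ranked 40, close to the fermentation genes ADH1 at 1.58 and PDC2 at 1.5. The first places there went to AT3G29970 at 4.65, AT5G10040 at 4.64 and PDC1, pyruvate decarboxylase, at 4.18. By the difference from 97 kPa, UMAMIT14 ranked 152 at 25 kPa and 23 under 97 kPa/HypOx.

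**Figure D2:**
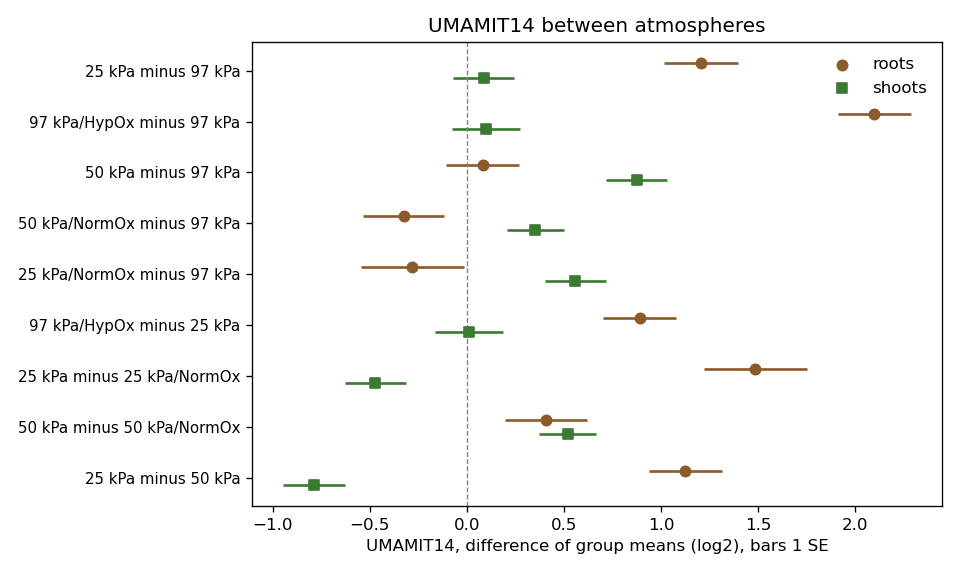
Differences of UMAMIT14 group means (log2, horizontal axis) for 9 pairs of atmospheres in roots (circles) and shoots (squares), with bars of 1 SE; the root values chose the gene and are a description. In roots 97 kPa/HypOx minus 97 kPa is the highest, at 2.1, and in shoots 50 kPa minus 97 kPa, at 0.87.

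The low-oxygen genes of Arabidopsis were read beside UMAMIT14 in the same roots. Of 16 such genes, 5 were named by the annotation of the array, and 11 only by tables of the study that hold genes it had called on these arrays. The counts over those 11 are not independent evidence of their direction. Higher at 25 kPa by the threshold of the study were 4 of the 5 and 9 of the 11, where 0.83% of all probe sets were called. The same numbers, 4 and 9, passed an adjusted p below 0.05 (limma, Benjamini-Hochberg), which 0.296% of all probe sets did. Under 97 kPa/HypOx the threshold of the study was passed by 4 of the 5 and all 11 (0.601% of probe sets), and the adjusted p by 4 and 9 (0.393%). At 50 kPa, 3 of the 5 and 6 of the 11 passed the threshold of the study (0.353%) and 0 passed the adjusted p (0.00442%). With oxygen restored, 0 of the 16 were higher than at 97 kPa by either rule at 50 kPa/NormOx (0.0486% of probe sets) or 25 kPa/NormOx (0.0221%), and LBD41 was lower at 25 kPa/NormOx by the threshold of the study (0.0177%). Across all probe sets, the median difference lay within 0.01 of 0 for 25 kPa, 50 kPa and 97 kPa/HypOx, while the 16 genes had medians of 2.38, 1.25 and 2.62.

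Among the enzymes, PDC1, which opens the route from pyruvate to ethanol, rose by 4.62 at 25 kPa and by 5.03 under 97 kPa/HypOx (adjusted p 0.0029 and 0.0012, limma). Its arrays read 3.96, 4.61 and 6.25 at 97 kPa, 9.41, 9.55 and 9.71 at 25 kPa, and 9.73, 9.96 and 10.20 under 97 kPa/HypOx. The 50 kPa arrays, at 6.96, 7.68 and 7.97, lay in between without overlap. ADH1, the alcohol dehydrogenase of the next step, rose by 1.55 and 1.5 (adjusted p 0.0062 and 0.0068, limma). SUS1, a sucrose synthase that feeds sugar into glycolysis, rose by 2.49 and 2.77 (adjusted p 0.0062 and 0.0021, limma). AHB1, a haemoglobin that acts on nitric oxide under low oxygen, rose by 2.63 and 2.60 (adjusted p 0.0023 and 0.0016, limma).

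UMAMIT14 and the low-oxygen genes had their values side by side in 2 respects and apart in another. Restored oxygen went with control-like levels in both: at 25 kPa/NormOx the 16 genes had a median difference from 97 kPa of 0.06, and UMAMIT14 had -0.28. The difference between 25 kPa and 25 kPa/NormOx was positive for all 16, with a median of 2.28, beside 1.49 for UMAMIT14. Between 97 kPa/HypOx and 25 kPa, however, the 16 genes ranged from -0.10 to 0.79 with a median of 0.34, and 0 of them exceeded the 0.89 of UMAMIT14. LBD41, a transcription factor gene of the low-oxygen set, came nearest at 0.79 (SE 0.23). At 50 kPa, by contrast, 14 of the 16 differed from 97 kPa by more than UMAMIT14 did. ADH1, at 6.34, 6.57 and 6.63 under 25 kPa and 6.40, 6.89 and 6.09 under 97 kPa/HypOx, overlapped between these atmospheres, which UMAMIT14 did not. Whether UMAMIT14 and these genes differ in this contrast was not tested, because UMAMIT14 had been chosen for it.

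**Figure D3:**
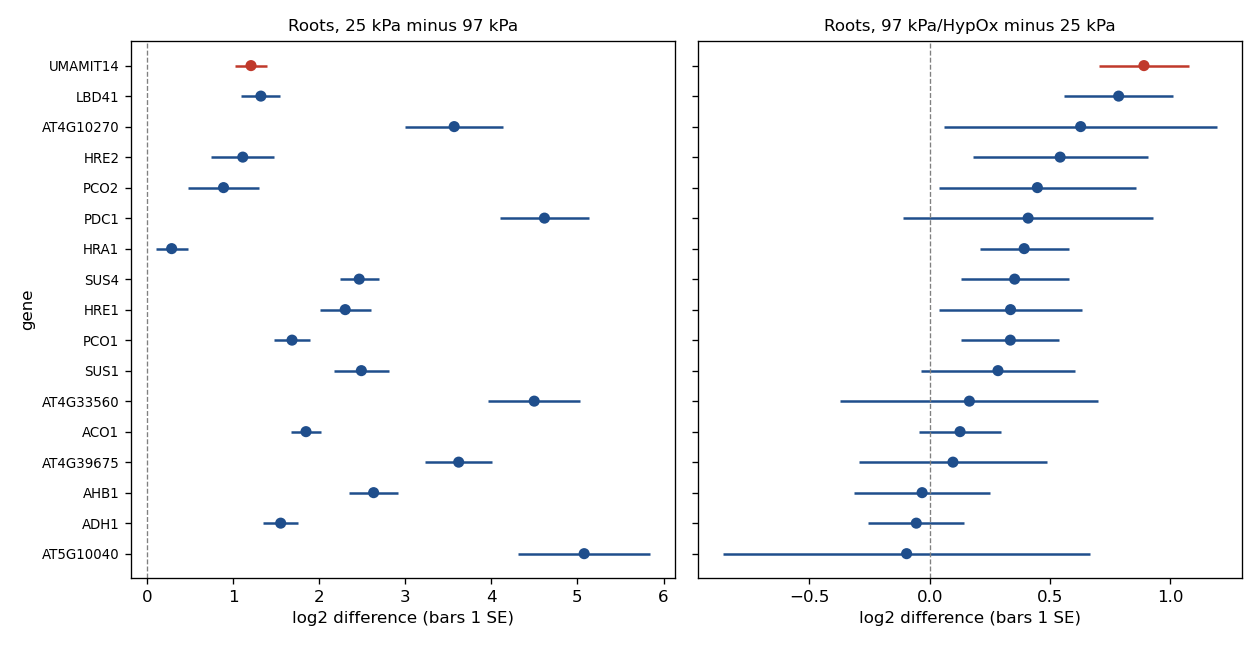
Root differences (log2, horizontal axis, bars 1 SE) of UMAMIT14 (red) and 16 low-oxygen genes (blue) for 25 kPa minus 97 kPa (left) and 97 kPa/HypOx minus 25 kPa (right), 1 gene per row, ordered by the right panel. UMAMIT14 has a difference below 13 of the 16 genes on the left and above all 16 on the right.

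The genes most like UMAMIT14 across the 15 root arrays were chosen by Pearson's r, without a p, since all points share the same arrays and atmospheres. CML38, a calmodulin-like protein gene known for its response to low oxygen, came first with r = 0.936. SUS4, another sucrose synthase, followed with 0.924, then AT4G17670 with 0.922, AT5G26200 with 0.92 and NIP2;1, an aquaporin-family channel gene, with 0.911. AT3G27220 and AT5G44730 both had 0.91, and the list closed with ACO1 at 0.907 (an enzyme of ethylene synthesis), AT3G60490 at 0.905 and LBD41 at 0.905. SUS4, NIP2;1, ACO1 and LBD41 carried names from the tables of the study only. The probe set of NIP2;1 can bind related transcripts as well. SUS4, ACO1 and LBD41 also belong to the 16 low-oxygen genes above.

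The array values of CML38 show how close the profile was and where it parted from UMAMIT14. CML38 read 3.27, 3.55 and 4.42 at 97 kPa, 3.96, 4.93 and 5.21 at 50 kPa, and 5.90, 6.14 and 6.18 at 25 kPa. With oxygen restored it read 3.89 and 4.09 at 50 kPa/NormOx and 3.96 at 25 kPa/NormOx, inside the control range as UMAMIT14 was. Under 97 kPa/HypOx it read 6.37, 6.75 and 7.18, all above its 25 kPa arrays. LBD41 had the same 2 steps without overlap, at 8.57, 8.63 and 8.70 for 97 kPa, 9.61, 9.99 and 10.25 for 25 kPa, and 10.59, 10.68 and 10.95 for 97 kPa/HypOx. Unlike UMAMIT14, LBD41 was already above all control arrays at 50 kPa, with 9.11, 9.13 and 9.42 (4.54% of probe sets did so). With oxygen restored it was below all of them, at 7.49 and 8.44 under 50 kPa/NormOx and 7.29 under 25 kPa/NormOx. There the contrast with UMAMIT14 rests on 97 kPa replicate 1, the root array that stood apart. The restored UMAMIT14 arrays lay above that array and below the other control arrays. The opposite profiles belonged to AT5G58420 (r = -0.889), the histone gene HTB1 (-0.872), SDH2-2, an iron-sulphur subunit of succinate dehydrogenase (-0.87), AT1G18540 (-0.864) and AT4G23440 (-0.845).

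**Figure D4:**
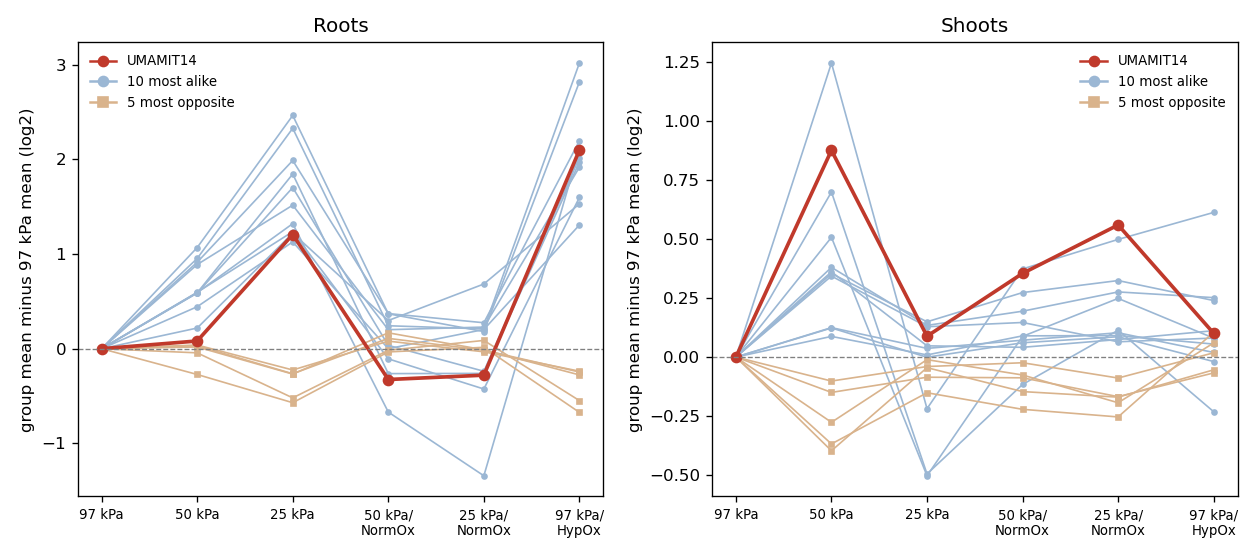
Group means minus the 97 kPa mean (log2, vertical axis) over the 6 atmospheres in roots (left) and shoots (right) for UMAMIT14 (red), the 10 genes most like it in that tissue (blue) and the 5 most opposite (tan). In roots the blue lines have their high points at 25 kPa and 97 kPa/HypOx, and in shoots UMAMIT14 has its high point at 50 kPa.

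In shoots, UMAMIT14 was highest at 50 kPa and showed no detectable difference from the control under the atmospheres with oxygen at 5 kPa. The 97 kPa shoot arrays read 5.84, 5.42 and 5.39 (mean 5.55, SD 0.253). At 25 kPa they read 5.74, 5.56 and 5.61 (mean 5.64, SD 0.095), and under 97 kPa/HypOx 5.82 and 5.48 (mean 5.65, SD 0.245). Both sets lay within the span of the control arrays. The 50 kPa arrays read 6.39, 6.16 and 6.72 (mean 6.42, SD 0.284), all above every 97 kPa array, as held for 8.6% of probe sets. At 50 kPa/NormOx the 4 arrays read 5.92, 5.75, 5.91 and 6.03 (mean 5.90, SD 0.119), overlapping the control. At 25 kPa/NormOx they read 6.15, 5.91 and 6.26 (mean 6.11, SD 0.177), all above the control (3.83% of probe sets). In the order of means, 97 kPa, 25 kPa, 97 kPa/HypOx, 50 kPa/NormOx, 25 kPa/NormOx and 50 kPa, each group overlapped the next.

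By limma over all probe sets, UMAMIT14 passed an adjusted p below 0.05 in 0 of 11 shoot comparisons. At 50 kPa the difference from 97 kPa was 0.87 (SE 0.16, 95% interval 0.54 to 1.21, 1.83-fold), with an unadjusted p of 6.36e-05 and an adjusted p of 0.364. It ranked 2 by p in that comparison, where 0% of probe sets passed the adjusted p and 6.08% had an unadjusted p below 0.05. Its size was below the 2-fold that the threshold of the study asks for. At 25 kPa the difference was 0.09 (95% interval -0.25 to 0.42), and under 97 kPa/HypOx 0.10 (-0.28 to 0.48), both with an adjusted p of 1. Between 97 kPa/HypOx and 25 kPa it was 0.01 (-0.36 to 0.39). With oxygen restored, it was 0.56 (0.22 to 0.90) at 25 kPa/NormOx, with an unadjusted p of 0.00306, and 0.35 at 50 kPa/NormOx, with an unadjusted p of 0.030.

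The comparisons without the control arrays had the same limits in shoots. UMAMIT14 read lower at 25 kPa than at 50 kPa by -0.79 (adjusted p 0.877, limma), and the arrays of these groups did not overlap (11.1% of probe sets had 50 kPa above 25 kPa throughout). At 25 kPa total pressure it differed by -0.47 between 5 kPa and 21 kPa oxygen (adjusted p 0.499, limma), with every 25 kPa/NormOx array above every 25 kPa array (7.14%). At 50 kPa total pressure the difference between 10 kPa and 21 kPa oxygen was 0.52 (adjusted p 0.558, limma), again without overlap (3.95%). The oxygen difference at 25 kPa total pressure minus that at 97 kPa, the interaction of pressure with oxygen, was -0.57 (adjusted p 1.00, limma).

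Over all 18 shoot arrays, UMAMIT14 was set against lowered oxygen and lowered pressure in turn by exact permutation tests. These permuted single arrays, so arrays of the same atmosphere counted as independent. Their p-values therefore do not measure the spread between atmospheres and cannot assign a difference to pressure or oxygen as such. The 8 arrays with lowered oxygen averaged 5.93 (SD 0.445) and the 10 with oxygen at 21 kPa averaged 5.86 (SD 0.282). The difference was 0.08 with a two-sided exact p of 0.662 (Benjamini-Hochberg over the 2 tests, 0.662), where 9.89% of probe sets had an unadjusted p below 0.05. The 13 arrays at lowered pressure ran from 5.56 to 6.72 with a median of 5.92 (mean 6.01, SD 0.328). The 5 arrays at 97 kPa ran from 5.39 to 5.84 with a median of 5.48 (mean 5.59, SD 0.224). The difference of 0.42 had a two-sided exact p of 0.0186 (adjusted 0.0371), and 4.19% of all probe sets had an unadjusted p below 0.05 in the same test. With 1 array left out in turn, the difference ran from 0.36 to 0.48, and the adjusted p was above 0.05 in 7 of 18 cases, at most 0.111. The lower-pressure arrays were not uniform, since those of 25 kPa lay within the range of the 97 kPa arrays.

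The shoot profile of UMAMIT14 was most like that of AT2G39690 (r = 0.809 over 18 arrays), the sugar transporter gene SWEET10 (0.778) and the calmodulin-like gene CML37 (0.77). AT3G25930 (0.742), iqd15 (0.724), AT2G07741 (0.722), BSMT1 (0.717), AT4G22490 (0.716), AT2G44240 (0.71) and AT3G46730 (0.708) completed the 10. Several of these read low and moved little in shoots, where the lowest value of any probe set was 3.31. Group means ran from 3.82 to 3.91 for AT3G46730, 3.76 to 3.89 for AT3G25930 and 4.18 to 4.32 for iqd15. SWEET10, AT2G07741 and AT4G22490 read higher and moved more. The probe set of AT2G07741 can bind related transcripts as well. SWEET10 read 7.11, 7.16 and 8.24 at 50 kPa, 5.71, 6.09 and 6.98 at 97 kPa, and 5.71, 6.00 and 6.42 at 25 kPa, so that it too was highest at 50 kPa and overlapped the control at 25 kPa. None of the 10 genes was among the 10 most like UMAMIT14 in roots. Lists this short, drawn from so many probe sets, would seldom share a gene, so this count shows no difference between tissues. The low-oxygen genes had r between -0.576 (ADH1) and 0.386 (HRE1) with UMAMIT14 in shoots. Low oxygen still left a mark on shoots: AT4G33560 rose by 1.87 at 25 kPa and by 2.99 under 97 kPa/HypOx (adjusted p 0.00662 and 7.8e-05, limma), where 0.0442% and 0.0221% of probe sets rose by the adjusted p. PDC1 rose by 0.94 and 1.52 there (adjusted p 0.032 and 0.0021, limma). Of the 16 low-oxygen genes, these were the ones to pass the adjusted p in shoots.

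Other genes of amino acid transport and metabolism were taken from lists, of which only a part could be named on the array. UMAMIT14 was the single member named of 47 in its family, so the family cannot be described beyond it. Its name, too, came only from the tables of genes that the study had called on these arrays. Of 26 amino acid importers 4 were named, and of 6 glutamine dumpers (regulators of amino acid export) 0. GAT1, an importer of the non-protein amino acid GABA, was the only importer named by the array annotation and differed from 97 kPa in roots by 0.05 at 25 kPa and by -0.21 under 97 kPa/HypOx. AAP6, LHT1 and LHT7 were named by the tables of the study only, and so are not independent of its calls.

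Of these 4 importers, 1 passed the adjusted p in roots. AAP6, an amino acid permease of the vascular tissue, fell by 1.08 under 97 kPa/HypOx (adjusted p 0.033, limma), where 0.0442% of probe sets fell. Its arrays read 7.0, 6.88 and 6.17 at 97 kPa, 6.06, 6.03 and 5.98 at 25 kPa, and 5.56, 5.77 and 5.50 under 97 kPa/HypOx. The order of these atmospheres was the reverse of that of UMAMIT14, with r = -0.756 over the 15 root arrays. The reverse did not extend to the other atmospheres. AAP6 differed from 97 kPa by -0.57 at 50 kPa and by -0.59 at 25 kPa/NormOx, where UMAMIT14 differed by 0.08 and -0.28. Without 97 kPa replicate 1, the AAP6 difference was -0.92 with an adjusted p of 0.065. LHT1, a high-affinity importer of root and leaf cells, differed by 1.37 at 25 kPa (adjusted p 0.205, limma), and LHT7 by 0.04. In shoots LHT1 and LHT7 read higher at 50 kPa by 1.29 and 1.33 (adjusted p 0.731 and 0.638, limma).

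Among the enzymes of amino acid metabolism, 4 of 24 were named, all by the tables of the study. Those tables hold genes it had called on these arrays. Counts over these 4 are therefore not independent evidence of their direction, also where shares of all probe sets stand beside them. In roots all 4 were higher by the threshold of the study at 25 kPa and under 97 kPa/HypOx, and 2 of them, ASP2 and GLN1-2, passed the adjusted p in both. Over all probe sets these shares were 0.83% and 0.601% by the threshold and 0.296% and 0.393% by the adjusted p. ASP2, a cytosolic aspartate aminotransferase, rose in roots by 2.32 at 25 kPa and by 2.63 under 97 kPa/HypOx (adjusted p 0.0012 and 0.00044, limma). Its arrays read 7.53, 7.53 and 8.22 at 97 kPa, 9.94, 10.01 and 10.30 at 25 kPa, and 10.20, 10.43 and 10.54 under 97 kPa/HypOx. With oxygen restored ASP2 read 8.25 and 8.71 at 50 kPa/NormOx and 8.18 at 25 kPa/NormOx, below all arrays of 50 kPa, which read 8.95, 8.98 and 9.08. Its r with UMAMIT14 was 0.885. GLN1-2, a cytosolic glutamine synthetase, rose by 1.00 in both atmospheres (adjusted p 0.037 and 0.035, limma). Unlike UMAMIT14, GLN1-2 also read high at 50 kPa/NormOx, with 10.70 and 10.78 against 9.90, 9.91 and 10.12 at 97 kPa. ALAAT1, the alanine aminotransferase that forms alanine from pyruvate, differed by 2.08 and 2.26 but varied widely at 97 kPa (4.23, 6.81 and 7.21), with adjusted p of 0.20 and 0.21 (limma). Its probe set can bind related transcripts as well. PRODH1, a proline dehydrogenase, differed by 1.13 and 1.25 (adjusted p 0.14 and 0.11, limma). In shoots 0 of the 4 passed the adjusted p, and ASP2 passed the threshold of the study under 97 kPa/HypOx with 1.21 (adjusted p 0.258, limma), where 0.159% of probe sets were higher by the threshold and 0.0221% by the adjusted p.

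A further 5 enzymes (DELTA-OAT, LKR/SDH, ASPGA1, ASPGB1 and BCAT4) and 8 glutamate receptor-like channels, which open to amino acids, were named by the array annotation and added after values had been seen. By the adjusted p, 0 of these 13 were called in any comparison with 97 kPa, and of all probe sets at most 0.393% were called there in 1 direction. GLR2.8 passed the threshold of the study in roots at 50 kPa, with -1.35 (adjusted p 0.369, limma), where 0.0442% of probe sets did so in that direction. The nearest genes of UMAMIT14 on chromosome 2 that were named here, by their order in the RefSeq annotation of TAIR10.1, differed less. AT2G39500, AT2G39520 and AT2G39540 differed in roots by 0.44, 0.09 and -0.01 at 25 kPa and by 0.08, -0.06 and -0.02 under 97 kPa/HypOx.

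**Figure D5:**
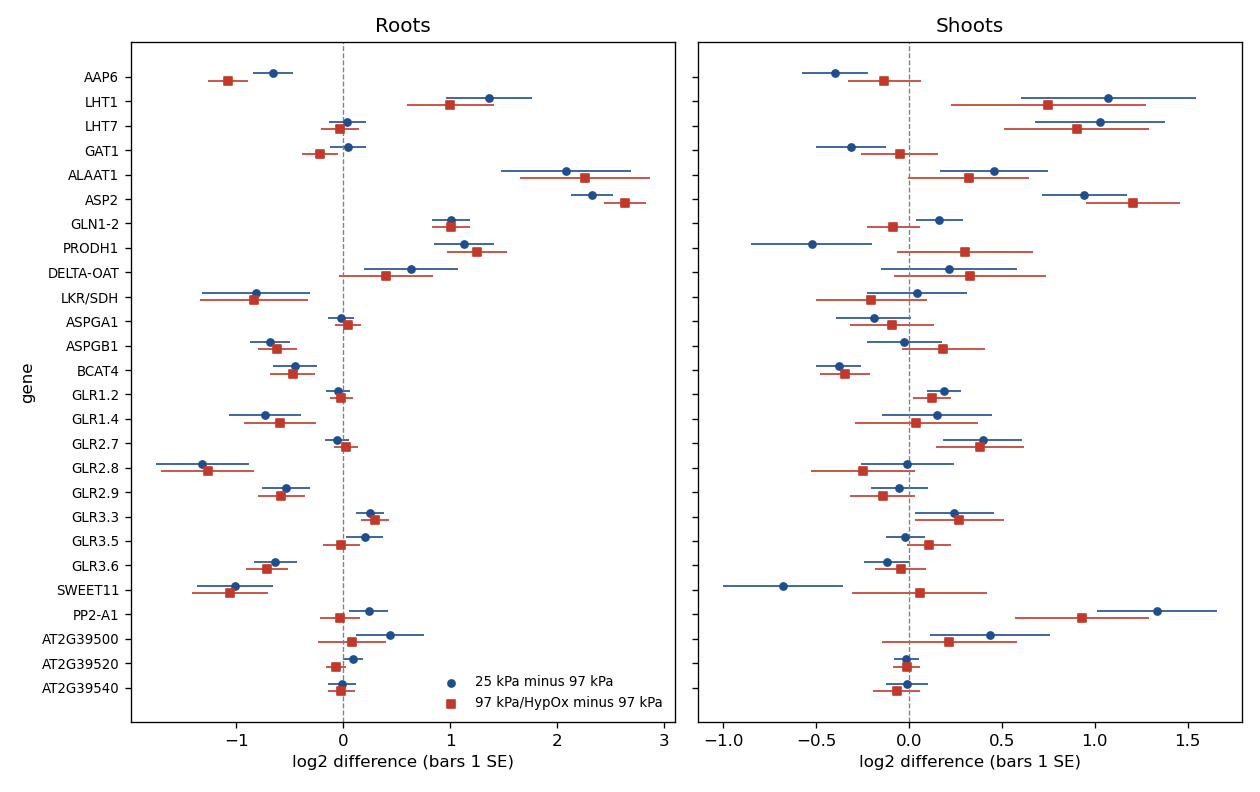
Differences from 97 kPa (log2, horizontal axis, bars 1 SE) in roots (left) and shoots (right) for 25 kPa (blue circles) and 97 kPa/HypOx (red squares), 1 gene per row: importers, amino acid enzymes, glutamate receptor-like channels, phloem markers and chromosome neighbours. In roots ASP2 has the highest pair of values, AAP6 is below 0 in both, and of the chromosome neighbours AT2G39520 and AT2G39540 lie near 0.

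The mix of tissue in a sample bears on these values, and in whole roots or shoots fewer cells of a type cannot be told apart from less RNA per cell. Of 8 shoot markers 3 were named (RCA, GAPA and PSBO1, all of photosynthesis), and in roots their summed level moved with UMAMIT14. GAPA and PSBO1 were named only by tables of genes that the study had called on these arrays. Their values, and so the sum, are not independent of those calls. RCA, named by the array annotation, had r = 0.513 with UMAMIT14 in roots. The log2 of the sum ran from 8.26 to 9.48 at 97 kPa, from 9.64 to 10.17 at 25 kPa and from 9.53 to 9.81 under 97 kPa/HypOx. It ran from 8.70 to 8.85 at 50 kPa/NormOx and was 8.87 at 25 kPa/NormOx. Its r with UMAMIT14 was 0.773. GAPA and PSBO1 differed from 97 kPa by 1.3 and 1.1 at 25 kPa (adjusted p 0.087 and 0.21, limma) and by 0.98 and 1.08 under 97 kPa/HypOx. The mean of the sum was 9.85 at 25 kPa and 9.63 under 97 kPa/HypOx. The part of shoot tissue in the root values was not tested. The 3 root markers named (EXPA7, BGLU23 and PER44) summed to between 12.14 and 12.71 in all root arrays, with r = 0.308. In shoots the sum of these root markers ran from 8.13 to 8.87 at 97 kPa, from 8.87 to 9.85 at 50 kPa and from 9.70 to 9.94 under 97 kPa/HypOx, with r = 0.24 to UMAMIT14. Within that sum BGLU23, a beta-glucosidase of the root, differed from 97 kPa by 1.04 at 50 kPa (adjusted p 0.689, limma). The part of root tissue in the shoot values was not tested.

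Of 10 phloem markers 2 were named: SWEET11, a sugar exporter of phloem parenchyma, and PP2-A1, a phloem lectin named by the tables of the study. In roots their summed log2 level was 8.12 to 9.44 at 97 kPa, 7.91 to 8.26 at 25 kPa and 7.73 to 7.97 under 97 kPa/HypOx, with r = -0.304 to UMAMIT14. SWEET11 passed the threshold of the study in roots at 50 kPa/NormOx, at -1.27 (adjusted p 0.581, limma), where 0.0132% of probe sets were lower by it. Without 97 kPa replicate 1 the SWEET11 difference was -0.75 and no longer passed. In shoots the same sum was 9.97 to 10.87 at 97 kPa, 10.54 to 11.02 at 50 kPa and 9.84 to 10.07 at 25 kPa, with r = 0.706 to UMAMIT14. SWEET11 differed by -1.15 between 25 kPa and 50 kPa in shoots (adjusted p 0.877, limma), beside -0.79 for UMAMIT14. PP2-A1 went the other way in this comparison, at 0.59. Taken singly, r with UMAMIT14 in shoots was 0.646 for SWEET11 and -0.0734 for PP2-A1. PP2-A1 passed the threshold of the study in shoots at 25 kPa, with 1.34 (adjusted p 0.143, limma), where 0.23% of probe sets were higher by it. The part of phloem content in the shoot values of UMAMIT14 was not tested.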

How the data were processed

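The authors deposited 1 table of log2 values for 33 ATH1 arrays, made by the Robust Multi-chip Average (RMA); the submitters' processing notes also name Affymetrix Expression Console. The root columns share 1 set of quantiles and the shoot columns another, so the tissues had been normalized separately and tests ran within a tissue, except the difference between root and shoot responses, each taken against its own 97 kPa arrays in 1 joint fit. After 101 mitochondrial and plastid probe sets were left out, as the study did, 22645 were fitted with limma 3.58.1 in R 4.3.3, with 1 model per tissue over its 6 atmospheres, empirical Bayes and Benjamini-Hochberg adjustment over all probe sets. The single root 25 kPa/NormOx array was assumed to vary like the other groups. The platform annotation gives 1 gene for 13513 probe sets, several for 503 and none for 8730. A further 213 were named only from tables of the study that list only genes it called. UMAMIT14 is among these, and the list members so named are given apart.

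The gene, the lists and the tests were chosen with earlier results of these data known. Genes named are UMAMIT14, the 10 with the highest and the 5 with the lowest Pearson correlation with it, its neighbours in rank, and list members past the threshold of the study or serving as examples. Further amino acid enzymes, glutamate receptor-like channels and chromosome neighbours were added after values had been seen. The study's threshold was an unadjusted p below 0.01 with a log2 change of at least 1. Marker sums are the log2 of summed linear values. Alternatives left out each array, added the replicate number as a block, centred each array on its median, used trend and robust empirical Bayes, fitted the compared groups alone, left out dim probe sets or kept organelle ones. Where nothing beyond the chamber separates arrays, p-values measure the spread between these arrays, and their number limits the precision. Shoot 50 kPa replicate 2 bears another replicate number in its description, and its title was used. Columns of values left unused numbered 0.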

Additional observations from a re-analysis of the deposited data

Results flagged for a closer look

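In shoots at 50 kPa/NormOx, replicate 1 stood far from the other 3 arrays for 6 genes named here, out of 76 gene and group combinations of 4 arrays that were looked at; chance alone flags about 1 in 20. ACO1 read 6.96 against 5.80 to 5.89, SUS4 5.92 against 4.84 to 5.00, and NIP2;1 4.97 against 4.14 to 4.22. GLR2.8 read 5.26 against 4.56 to 4.66. AT2G39500 read 4.33 against 5.88 to 6.12 and AT5G44730 5.86 against 6.55 to 6.65. This is the shoot array with the lowest correlation with the others, and UMAMIT14 did not stand apart in it.

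UMAMIT14 lay on opposite sides of the 97 kPa mean in the 2 tissues when oxygen was restored. At 50 kPa/NormOx it differed by -0.33 in roots and by 0.35 in shoots, and at 25 kPa/NormOx by -0.28 in roots and by 0.56 in shoots. Every array of these groups lay on its side of the mean, but the share of all probe sets with such a pattern was not counted. The root groups held only 2 arrays and 1 array, all inside the range of the 97 kPa arrays. Their differences had an SE of 0.21 and 0.27. The difference between tissues was not tested.

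The response to 25 kPa was larger in roots than in shoots for 6 of the 16 low-oxygen genes, by a joint limma fit of both tissues with Benjamini-Hochberg adjustment, which 0.128% of probe sets passed in that direction. PDC1, HRE1, SUS4 and ADH1 were named only by the tables of genes that the study had called. The excess on the log2 scale was 4.77 (SE 0.77, adjusted p 0.00601) for AT5G10040, 3.67 (SE 0.54, adjusted p 0.00372) for PDC1 and 3.06 (SE 0.45, adjusted p 0.00372) for AT4G39675. It was 2.1 (SE 0.34, adjusted p 0.00601) for HRE1, 1.78 (SE 0.35, adjusted p 0.0342) for SUS4 and 1.39 (SE 0.23, adjusted p 0.00777) for ADH1. Under 97 kPa/HypOx 4 of the 16 passed, where 0.0486% of probe sets did, and the excess was 4.33 (SE 0.81, adjusted p 0.038) for AT5G10040, 3.5 (SE 0.57, adjusted p 0.00703) for PDC1, 2.93 (SE 0.48, adjusted p 0.00703) for AT4G39675 and 2.25 (SE 0.36, adjusted p 0.00703) for HRE1.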

How the results depend on the processing

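The root values of UMAMIT14 moved most without 97 kPa replicate 1: to 0.96 for 25 kPa, 1.85 for 97 kPa/HypOx, -0.17 for 50 kPa, -0.57 for 50 kPa/NormOx and -0.53 for 25 kPa/NormOx, each against 97 kPa. Leaving out each root array in turn, these 5 differences ran from 0.96 to 1.38, 1.85 to 2.27, -0.17 to 0.25, -0.57 to -0.15 and -0.53 to -0.11. For 97 kPa/HypOx minus 25 kPa the range was 0.83 to 0.96. In shoots, leaving out 1 array gave 0.73 to 1.02 for 50 kPa minus 97 kPa, with adjusted p from 0.20 to 0.982 over all alternatives (limma). The difference near 0 changed sign for lowered against normal oxygen (-0.036 to 0.14), for 97 kPa/HypOx minus 97 kPa (-0.073 to 0.27) and for 97 kPa/HypOx minus 25 kPa (-0.16 to 0.19). Omitting 25 kPa replicate 2 or 3 gave -0.03 and -0.00 for the last. For lowered against normal pressure the range was 0.36 to 0.48, and the adjusted exact p was above 0.05 without 97 kPa replicate 2 or 3, 50 kPa replicate 1 or 2, 25 kPa/NormOx replicate 1 or 3, or 97 kPa/HypOx replicate 2. No other alternative moved a UMAMIT14 call.

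Deviations of same-numbered arrays from their group means correlated above 0.1 in 13 of 26 pairs in roots and 12 of 40 in shoots. The median correlation was 0.099 in roots and -0.026 in shoots, against -0.047 and 0.013 for arrays with different numbers. The main models did not use the numbers, and whether these pair the root arrays was not tested. With the replicate block, shoot 50 kPa minus 97 kPa was 0.87 (adjusted p 0.400, limma) and root 25 kPa minus 25 kPa/NormOx 1.31, and no call changed.

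Among the lists, the 1 phloem marker called in roots at 50 kPa/NormOx, SWEET11, became 0 without root 97 kPa replicate 1, and 0 became 1 under 97 kPa/HypOx with trend and robust empirical Bayes. For single genes, LBD41 and AT5G26200 at 25 kPa had adjusted p of 0.068 and 0.071 (limma) without root 97 kPa replicate 1, an omission chosen after seeing the data, while HRE2 and PCO2 passed under 97 kPa/HypOx at 0.013 and 0.003. Of the 10 genes most like UMAMIT14 in roots, 5 were shared with a Spearman ranking, 4 without the least similar array and 0 over the 6 group means. In shoots these numbers were 4, 7 and 0. Probe sets without a gene name that ranked above the 10th numbered 2 in roots and 14 in shoots. Arrays give no read depth, and 1 to 4 arrays per group limit what can be detected.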
